A study of Rattus norvegicus with 6 samples.

Results

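The immediate early genes are a small group of genes whose transcripts appear within minutes of a stimulus, without new protein having to be made first. In neurons, calcium entry and the ERK kinase cascade activate transcription factors already bound at their promoters, chiefly CREB and the serum response factor, and the transcripts are then lost again quickly. For this reason they serve as markers of recent neuronal activity, although growth factors, stress and tissue handling induce many of them as well.

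The group studied here held 10 genes of the 32754 gene IDs in the count table. They were Fos, Fosb and Junb, Egr1 and Egr2, Nr4a1 and Nr4a3, Npas4, Arc and Dusp1. They were selected by their Ensembl gene IDs, all 10 of which were found, with no threshold on a level or a difference, though the list was drawn up when earlier results of these data were known. The symbols are those given with the selection. An annotation of the build Rnor_6.0 was not used here, so the pairing of ID and symbol was checked for 0 of the 10 genes and 0 were dropped.

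RNA was sequenced from the cortex of embryonic rats on day 18 of gestation. The 3 controls were of the Sprague-Dawley strain (SD). The other 3 animals were of the tish line, a rat with bilateral subcortical heterotopia, which is a band of misplaced neurons below the cortex, and the series attributes it to a deletion in Eml1, a gene for a microtubule-associated protein. Each group held 2 males (replicates 1 and 3) and 1 female (replicate 2), and no agent was given. The tissue was labelled cortex for every SD animal and neocortex for every tish animal. The tish tissue included the heterotopia as well as the normally placed cortex, so tissue and genotype cannot be told apart. Litter and dam were not among the labels used, and if animals of a group shared a litter the p-values would measure only the spread among these animals. Lower RNA per cell and fewer cells of a type also cannot be told apart in such bulk tissue.

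Library totals ran from 15625915 to 20844504 counts, and a count of 0 would allow up to 0.146 to 0.192 CPM (read counts scaled to a common library total, adjusted by TMM factors of 0.970 to 1.04). SD 1 had 18 genes at least 4-fold above every other library and tish 3 had 46 at least 4-fold below, and 0 of the 10 immediate early genes were among either. Each library held reads for every one of the 10 genes. The Eml1 transcript, the markers of cortex and of other cell types, and a wider list of activity-responsive genes were not analysed here, because their IDs could not be paired with symbols.

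The sequences just before a RefSeq start site of 4 of these genes are printed because they carry the letters through which the upstream factors are known to act, in 2 genes that rose in tish (Egr1, Nr4a1), 1 that fell (Dusp1) and 1 that did not pass the test (Junb). Each is 250 bases, 5′ to 3′ on the gene's strand (here +), from RefSeq in the build GRCr8, which is not the build of the counts. The windows are chr18:26736828-26737077 for Egr1, chr7:134259888-134260137 for Nr4a1, chr10:17184603-17184852 for Dusp1 and chr19:40080876-40081125 for Junb. Capitals mark the cyclic AMP response element TGACGTCA, its core TGACG read on either strand (the full element holds it on both) and the CArG box, to which serum response factor binds.
Egr1: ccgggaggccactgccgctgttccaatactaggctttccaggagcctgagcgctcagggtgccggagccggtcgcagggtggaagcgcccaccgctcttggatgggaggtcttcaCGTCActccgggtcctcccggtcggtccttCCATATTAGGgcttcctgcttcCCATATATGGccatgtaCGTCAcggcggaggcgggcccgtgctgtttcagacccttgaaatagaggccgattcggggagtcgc
Nr4a1: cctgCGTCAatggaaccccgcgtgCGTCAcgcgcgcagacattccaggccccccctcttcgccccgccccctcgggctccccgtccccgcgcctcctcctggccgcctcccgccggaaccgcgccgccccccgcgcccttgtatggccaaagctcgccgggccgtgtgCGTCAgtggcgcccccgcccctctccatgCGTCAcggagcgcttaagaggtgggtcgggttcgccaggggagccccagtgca
Dusp1: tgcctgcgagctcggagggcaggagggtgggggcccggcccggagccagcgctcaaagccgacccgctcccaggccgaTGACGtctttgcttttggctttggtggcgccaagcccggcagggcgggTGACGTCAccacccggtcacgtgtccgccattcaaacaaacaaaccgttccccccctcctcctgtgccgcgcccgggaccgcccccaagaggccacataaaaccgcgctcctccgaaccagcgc
Junb: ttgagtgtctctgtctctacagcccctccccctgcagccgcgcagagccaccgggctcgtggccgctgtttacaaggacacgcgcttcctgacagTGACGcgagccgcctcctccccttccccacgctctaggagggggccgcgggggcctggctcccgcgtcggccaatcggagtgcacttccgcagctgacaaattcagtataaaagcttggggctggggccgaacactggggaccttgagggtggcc

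The windows differ in these letters. Egr1 had 2 CArG boxes, CCATATTAGG from 105 bases before the start and CCATATATGG from 83 bases before it, with 2 copies of the core. Nr4a1 had 4 copies of the core and no CArG box. Dusp1 had the full element TGACGTCA from 124 bases before the start, and 3 copies of the core, 2 of them inside the full element. Junb had 1 copy of the core.

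A window of 250 bases before to 50 after the start was at hand for 7 of the 10 genes (Fosb, Junb, Egr1, Egr2, Nr4a1, Npas4 and Dusp1). On both strands the core TGACG was present in 5 of 7, against 21.2% of 33469 promoters of that length. The CArG box was present in 2 of 7 (Egr1 and Egr2), against 1.64% of promoters, and the full element in 1 of 7, against 1.83%. The windows of Fosb and Npas4, which both rose in tish, held 0 matches to these letters. For Fosb, Egr2, Nr4a1 and Npas4 the start site of the window lies inside the span of a longer RefSeq gene model, by 322, 760, 12985 and 11936 bases, so other start sites of these genes were not searched. A match is a description of the letters and not of a bound factor.

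The comparison of tish with SD asks whether transcripts that mark recent activity differ in the malformed cortex before birth. Of the 10 genes, 5 were higher in tish (Fos, Fosb, Egr1, Nr4a1 and Npas4, 1.98-fold to 2.60-fold), 1 was lower (Dusp1, 1.24-fold), and 4 did not pass the test (Junb, Egr2, Nr4a3 and Arc). The test was edgeR's quasi-likelihood test over 14818 genes, with a call at a Benjamini-Hochberg adjusted p under 0.05. Over all tested genes it called 26.3%, 13.4% higher and 12.9% lower in tish. The median log2 fold change was 0.86 over the 10 genes and -0.02 over all tested genes, and it was 0.39 over the 7 genes that passed the filter on low counts by their SD libraries alone.

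The low-count filter bears on this tally, since Fosb, Npas4 and Egr2 passed it through their tish libraries and would not have passed on the SD libraries alone. Of the other 7 genes, 4 were called, 3 of them higher. The median of 0.86 therefore holds 3 genes that needed tish libraries over the filter level to be tested. Fosb and Npas4 each had 1 SD library over that level and Egr2 had 2, so Egr2 needed the least from tish. With no filter on low counts the call was made for 5 of 10 genes, the 5 that were higher in tish, beside 17.3% of all genes with a count. Leaving out tish 1 lowered the number called to 3 (Fos, Egr1 and Nr4a1), beside 16.2% of genes tested, and DESeq2 with all libraries called these 3 genes, beside 4025 of all 22335 genes with a count.

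**Figure D1:**
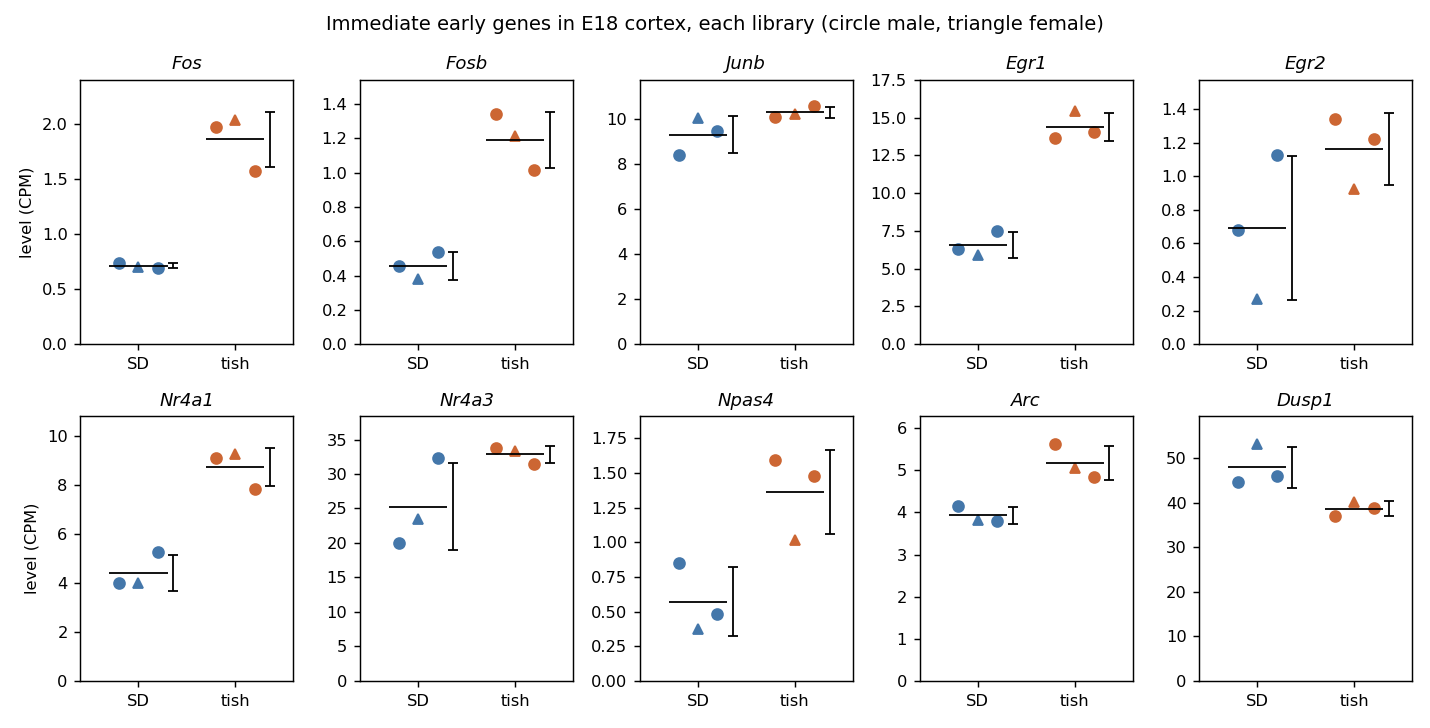
Level of each immediate early gene in CPM (vertical axes from 0, scaled separately for each gene) in the 3 SD and 3 tish libraries, with circles for males, triangles for females, a line at the group mean and a bar of 1 standard deviation on each side. The groups do not overlap for Fos, Fosb, Egr1, Nr4a1, Npas4, Arc, Junb and Dusp1, and they overlap for Egr2 and Nr4a3.

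AP-1 is a dimer of a Fos and a Jun protein that binds DNA at many activity-responsive and growth-responsive genes. Fos (ENSRNOG00000008015) had 13 counts in each of the 3 SD libraries, and 31, 42 and 31 counts in tish 1, tish 2 and tish 3. Every tish library was above every SD library, and the SD libraries lay closer together than counting error alone would place them on average. Fos averaged 0.712 ± 0.0237 CPM over the SD libraries and 1.86 ± 0.251 CPM over the tish libraries (standard deviation, n = 3 each). The log2 fold change was 1.38 (SE 0.27, edgeR adjusted p = 0.00538), and the ratio of summed counts, 2.61, had an exact 95% interval of 1.79 to 3.88 that covers counting error only.

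Fosb (ENSRNOG00000046667), the close relative of Fos whose truncated product ΔFosB accumulates under repeated activity, followed the same order. It had 8, 7 and 10 counts in the SD libraries and 21, 25 and 20 in the tish libraries. The groups did not overlap, with means of 0.456 ± 0.0791 CPM for SD and 1.19 ± 0.163 CPM for tish (standard deviation, n = 3 each). Fosb rose by a log2 fold change of 1.36 (SE 0.32, edgeR adjusted p = 0.0123). Without tish 1 the log2 fold change was 1.28 with an adjusted p of 0.0504, and with DESeq2 it was 1.39 with an adjusted p of 0.0619.

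Junb (ENSRNOG00000042838), the partner of Fos proteins within AP-1, did not pass the test. Its counts were 148, 186 and 177 in the SD libraries and 158, 211 and 208 in the tish libraries. The level was 9.31 ± 0.819 CPM for SD and 10.3 ± 0.252 CPM for tish (standard deviation, n = 3 each). The lowest tish library, at 10.1 CPM, stood just above the highest SD library, at 10.03 CPM. The log2 fold change of 0.15 (SE 0.14, edgeR adjusted p = 0.493) had a 95% interval of -0.18 to 0.47, which does not reach the change measured for Fos. The difference between Junb and Fos was not tested.

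The zinc finger factors Egr1 and Egr2 bind GC-rich sites. Egr1 is induced in neurons by synaptic activity and has a steady level in cortex that depends on it, while Egr2 is best known for hindbrain patterning and for myelination by Schwann cells. Egr1 (ENSRNOG00000019422) gave 111, 109 and 140 counts in the SD libraries and 214, 318 and 276 in the tish libraries. Every tish library was above every SD library by a wide margin, from 13.6 to 15.4 CPM against 5.88 to 7.50 CPM. The means were 6.56 ± 0.839 CPM for SD and 14.4 ± 0.937 CPM for tish (standard deviation, n = 3 each). Egr1 rose 2.19-fold, a log2 fold change of 1.13 (SE 0.15, edgeR adjusted p = 0.00111). Of the 10 genes it had the smallest adjusted p, and it was called under each of the 14 alternative analyses, with log2 fold changes of 1.01 to 1.23.

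Egr2 (ENSRNOG00000000640) showed the widest spread of the 10. It had 12, 5 and 21 counts in the SD libraries and 21, 19 and 24 in the tish libraries. SD 3, at 1.12 CPM, exceeded tish 2, at 0.922 CPM, so the groups overlapped. Its log2 fold change was 0.73 (SE 0.44, edgeR adjusted p = 0.258), with a 95% interval of -0.27 to 1.72, so neither no change nor a change as large as that of Egr1 lay outside it. Without SD 2 the log2 fold change was 0.35 and without SD 3 it was 1.27, and neither passed the test.

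The orphan nuclear receptors Nr4a1 (Nur77) and Nr4a3 (NOR-1) are transcription factors without a known hormone, controlled mainly by how much of them is made. Nr4a1 (ENSRNOG00000007607) had 70, 74 and 98 counts in the SD libraries and 143, 191 and 154 in the tish libraries. Its means were 4.41 ± 0.729 CPM for SD and 8.74 ± 0.792 CPM for tish (standard deviation, n = 3 each), and the lowest tish library, at 7.83 CPM, was above the highest SD library, at 5.25 CPM. Nr4a1 rose 1.98-fold, a log2 fold change of 0.99 (SE 0.18, edgeR adjusted p = 0.00457).

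Nr4a3 (ENSRNOG00000005964) had 352, 435 and 603 counts in the SD libraries and 530, 687 and 619 in the tish libraries. Within SD it ran from 20.02 CPM in SD 1 to 32.3 CPM in SD 3, while the tish libraries held to 31.5 to 33.8 CPM, so SD 3 lay inside the range of tish. Its log2 fold change was 0.38 (SE 0.16, edgeR adjusted p = 0.119). The estimate depended on single SD libraries in both directions. Without SD 3, the highest, the log2 fold change was 0.59 and the edgeR adjusted p was 0.015. Without SD 1, the lowest, the log2 fold change was 0.24 and the edgeR adjusted p was 0.211. SD 3 was also the highest of the SD libraries for Nr4a1, Egr1, Egr2 and Fosb.

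Npas4 (ENSRNOG00000020009) is a bHLH-PAS factor that, among these genes, is known for responding to calcium entry in neurons rather than to growth factors, and it governs the formation of inhibitory synapses. Its counts were 15, 7 and 9 in the SD libraries and 25, 21 and 29 in the tish libraries. The groups did not overlap, at 0.377 to 0.853 CPM in SD and 1.02 to 1.59 CPM in tish. Npas4 rose by a log2 fold change of 1.24 (SE 0.37, edgeR adjusted p = 0.0354). This call is a weak one. Leaving out SD 2, SD 3, tish 1 or tish 3 gave adjusted p of 0.114, 0.117, 0.115 and 0.101, and DESeq2 gave 0.0889, with the log2 fold change staying between 1.02 and 1.64 over all alternatives.

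Arc (ENSRNOG00000043465) is the effector among them, a protein of dendrites and postsynaptic sites that promotes removal of AMPA receptors. It had 73, 71 and 71 counts in the SD libraries and 88, 104 and 95 in the tish libraries, or 3.93 ± 0.195 CPM and 5.16 ± 0.405 CPM (standard deviation, n = 3 each). Every tish library was above every SD library, yet the difference was 1.31-fold and did not pass the test over all genes (log2 fold change 0.39, SE 0.18, edgeR adjusted p = 0.131). The 95% interval of -0.003 to 0.79 on the log2 scale lay below the 1.38 of Fos, but it overlapped the 95% interval of Fos, 0.78 to 1.97. The difference between Arc and Fos was not tested.

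Dusp1 (ENSRNOG00000003977) encodes a nuclear phosphatase that inactivates MAP kinases and so ends the signal that induces it. It was the one gene of the 10 with a lower level in tish. Its counts were 785, 986 and 860 in the SD libraries and 579, 830 and 765 in the tish libraries. The level was 47.9 ± 4.56 CPM for SD and 38.7 ± 1.68 CPM for tish (standard deviation, n = 3 each), and the highest tish library, at 40.3 CPM, was below the lowest SD library, at 44.6 CPM. Dusp1 fell, with a log2 fold change of -0.31 (SE 0.10, edgeR adjusted p = 0.0455), which is close to the threshold. Under RLE scaling the adjusted p was 0.0557, with no count filter 0.0621 and with DESeq2 0.0624. Leaving out SD 2, SD 3, tish 1, tish 2 or tish 3 gave 0.112, 0.0721, 0.158, 0.0804 and 0.122, and the log2 fold change stayed between -0.36 and -0.22 over all alternatives.

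**Figure D2:**
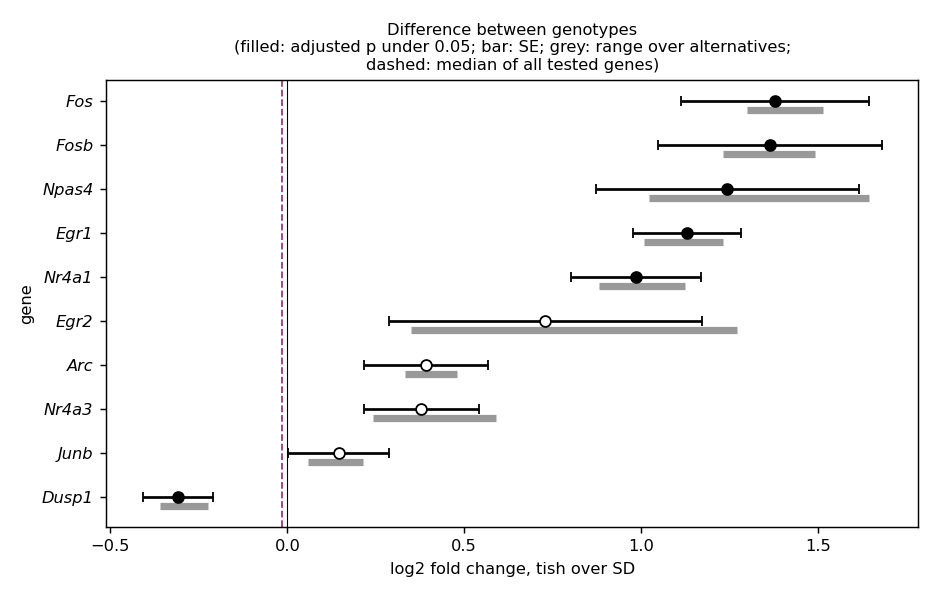
Log2 fold change of tish over SD for the 10 genes (horizontal axis), ordered by size, with points filled where the edgeR adjusted p was under 0.05, bars of 1 standard error on each side, and grey bars for the range over the alternative analyses. Fos, Fosb, Npas4, Egr1 and Nr4a1 lie near or above 1, Dusp1 lies at -0.31, and no grey bar crosses 0.

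The direction of the 10 genes can also be set against the other genes of the table. The groups did not overlap in 7 genes that were higher in tish and 1 that was lower, while such separation was found in 44.3% of the genes tested (21.7% higher and 22.6% lower). Without Fosb, Npas4 and Egr2, the groups stood apart in 5 of 7 genes that were higher in tish and 1 that was lower. A log2 fold change at least as high as that of Fos was found in 319 of the 14818 tested genes (2.15%), and one at least as high as that of Egr1 in 528 (3.56%). For Nr4a1 it was 699 genes (4.72%). For Junb it was 33.0% of genes, so that Junb stood well within the bulk.

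**Figure D3:**
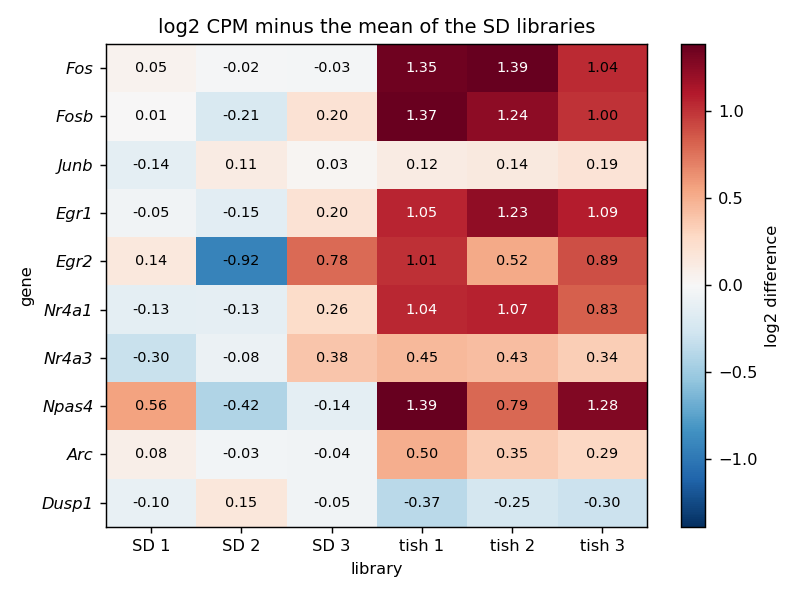
Log2 CPM of each gene (rows) in each library (columns) minus the mean of the SD libraries, on a colour scale centred at 0, computed with a prior count of 2, which draws low counts such as those of Fosb toward 0. The tish columns are 0.83 or higher for Fos, Fosb, Egr1 and Nr4a1 in every library, and the SD 2 and SD 3 columns part most for Egr2.

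Among the genes that rose, the tish libraries were closest together for Egr1. For Fos, the log2 difference from the SD mean was 1.35, 1.39 and 1.04 in tish 1, tish 2 and tish 3. For Egr1 it was 1.05, 1.23 and 1.09, and for Nr4a1 it was 1.04, 1.07 and 0.83. Npas4 was less even, at 1.39, 0.79 and 1.28, with the female library, tish 2, below both males. With sex as a covariate 6 genes were called as before, beside 29.5% of genes tested (26.3% without the covariate). With the 4 males alone, Egr1 was the only gene called (edgeR adjusted p = 0.0188), beside 14.3% of genes tested. Fos and Nr4a1 then had adjusted p of 0.0544 and 0.0512 and log2 fold changes of 1.30 and 0.88. The difference between the sexes itself was not tested.

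Over the 6 libraries, log2 CPM gave a Pearson's r of 0.78 to 0.99 for the 10 pairs among Fos, Fosb, Egr1, Nr4a1 and Npas4. Between Dusp1 and each of the other 9 genes it was -0.96 to -0.33. Between Junb and the other 8 genes it was 0.19 to 0.72. These values are a description of 6 points that share genotype, library and depth. The genes of the 10 pairs were those called higher in tish, so a high r among them follows from that choice. Each library was then taken as its deviation from its group mean. In these deviations r for the 10 pairs ran from -0.30 (Nr4a1 with Npas4) to 0.85 (Fosb with Nr4a1), and was 0.12 for Fos with Egr1. For Junb with Dusp1, which is not among the 10 pairs, r was 0.79 in the deviations and -0.33 in log2 CPM over the 6 libraries.

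The same values can be set against each other within a library, where no scaling enters. Per 100 Dusp1 counts, Fos had 1.66, 1.32 and 1.51 in the SD libraries, and 5.35, 5.06 and 4.05 in the tish libraries (in order of replicate). Egr1 counts per 100 Junb counts were 75.0, 58.6 and 79.1 in SD, and 135, 151 and 133 in tish. Nr4a1 counts per 100 counts of its relative Nr4a3 were 19.9, 17.0 and 16.3 in SD, and 27.0, 27.8 and 24.9 in tish. In each of these ratios every tish library was above every SD library. The pairs were chosen after the differences of the single genes were seen, so the ratios are no further evidence of those differences. They are free of normalization, but each holds the change of both of its genes and is not the fold change of either.

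**Figure D4:**
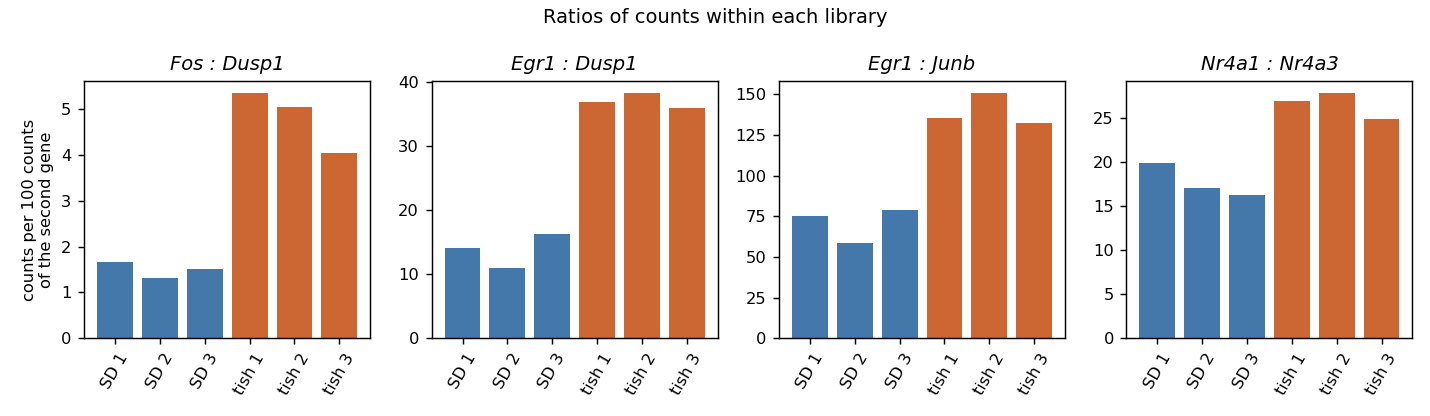
Counts of one immediate early gene per 100 counts of another in each library (bars from 0, SD in blue and tish in orange), for Fos to Dusp1, Egr1 to Dusp1, Egr1 to Junb and Nr4a1 to Nr4a3. All tish bars stand above all SD bars, with Fos to Dusp1 at 1.32 to 1.66 in SD and 4.05 to 5.35 in tish.

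As edgeR estimated it, the spread of these genes within a genotype was near that of other genes. The estimate draws each gene toward genes of similar level, so with 6 libraries this nearness is partly set by the method. The median biological coefficient of variation, edgeR's estimate of the spread between animals beyond counting error, was 16.0% over the 10 genes and 13.9% over all tested genes, and the median gene of the group stood at the 60.7th percentile. By this estimate Dusp1 was the least variable at 10.5%. Egr2 was the most variable at 28.5%, the 94.7th percentile, followed by Npas4 at 22.2%.

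Measured directly, the counts within genotypes scattered by a chi-square of 14.9 per degree of freedom for Nr4a3 and 4.59 for Dusp1, where counting error alone gives about 1. For Fos, Fosb and Arc the value was 0.338, 0.328 and 0.360, so no variation between animals beyond counting error was detectable for them at this depth. For Egr1 and Nr4a1 it was 1.57 and 1.81, for Egr2 and Npas4 2.83 and 1.64, and for Junb 0.698. At an equal relative spread this value grows with the count, and Nr4a3 and Dusp1 had the most counts. It therefore does not rank the genes by their relative spread.

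The genes whose pattern over the 6 libraries was most like the mean of the 10 were known by ID alone. ENSRNOG00000012512 had Pearson's r of 0.9993 with that mean, and rose from 3.32 ± 1.02 CPM in SD to 11.8 ± 1.28 CPM in tish (standard deviation, n = 3 each, edgeR adjusted p = 0.000798). ENSRNOG00000002349 had r of 0.9987 and rose from 10.96 ± 1.81 to 21.2 ± 1.5 CPM (standard deviation, n = 3 each, edgeR adjusted p = 0.0022). The mean of the 10, as centred log2 CPM, was -0.53 to -0.20 in the SD libraries and 0.31 to 0.43 in the tish libraries. The rise of these 2 IDs and its adjusted p therefore follow from how they were picked and are no separate result. Of 13802 genes compared, 1070 (7.75%) had r above 0.9, so such likeness over 6 libraries is common in this table.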

How the data were processed

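The authors deposited raw read counts per Ensembl gene ID for the 6 libraries, 1 per animal. STAR, featureCounts 1.5.0 and the build Rnor_6.0 are named in the submitters' processing notes. How strand and multi-mapping reads were handled is not given in the sources used, so reads of overlapping genes are uncertain. The table lists each of the 10 genes 2 times with equal values (0 values differed), and the first was used. Symbols came with the gene selection. The RefSeq table held an Ensembl ID for 0 of 47357 genes.

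Counts were fitted with edgeR 4.0.16 in R 4.3.3 (filterByExpr with a minimum count of 10, TMM, robust glmQLFit, glmQLFTest, genotype as the only term), over all genes. Standard errors are the log2 fold change over the root of F. The steps were tested on simulated data. Alternatives were DESeq2 1.42.0, other scalings and filters, sex as a covariate, males alone, and libraries left out. The 10 genes, the motif letters and the tests were chosen with earlier results of these data known. The genes named were the 10, plus the 2 IDs with at least 1 CPM on average whose log2 CPM (prior count 2) best followed their mean. Precision is limited by library totals of 15625915 to 20844504, and intervals on count ratios are exact, at 95%.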

Additional observations from a re-analysis of the deposited data

How the results depend on the processing

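Of 139 values for single genes under other settings, 117 kept their direction and side of the threshold, 21 fell short of it, 1 passed it (Nr4a3 without SD 3) and 0 reversed. Genes not called in the main fit are counted among the 117 where they stayed uncalled. The 21 were all of genes called in the main fit. They were Dusp1 in 10 of 14 settings, Npas4 in 6 of 14, Fosb in 3 of 13, and Fos and Nr4a1 in 1 of 14 each. The number of genes called among the 10 (6, of them 5 higher and 1 lower) was 3, 3 and 0 with DESeq2, and 1, 1 and 0 with males alone. The share called over all genes was 26.3% of 14818 in the main fit and 14.3% of 14869 with males alone. DESeq2 was given all 22335 genes with a count, so its share of 18% has a larger base. It called 4025 genes, against 3894 in the main fit. The number lower was 0 with RLE scaling, with no count filter and with SD 1 and tish 3 left out together, where 5 genes were higher. These settings called 26.2%, 17.3% and 25.1% of all their genes. With 1 library left out the number called was 3 to 6, with 3 to 5 higher and 0 to 1 lower, beside 16.2% to 31.7% of genes tested. Over all tested genes, males alone gave 2130 calls (1170 higher, 960 lower), and leaving out 1 library gave 2437 to 4764 calls, 1307 to 2480 higher and 1130 to 2284 lower. The cause was not tested. A shorter window of 150 bases ran from 100 bases before the start to 50 after it. It held the full cyclic AMP response element in 0 of 7 promoters, against 1.32% of all promoters. The element of Dusp1, from 124 bases before the start, lies outside it. The core was in 3 of 7, against 13.5%, and the CArG box in 2 of 7, against 0.693%. The stricter filter of 1 CPM in 3 libraries gave no value for Fosb. Depth limits Fos, Fosb, Npas4 and Egr2 most. No paired analysis was possible because the labels number no replicates, and the numbers used are names only.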
